A study of Mus musculus with 2 samples.

Results

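Genes of glucose uptake, glycolysis and lactate handling, and genes induced by low oxygen, were followed in single cells of the adult mouse cochlea. The 32 members were taken as a list of symbols, 22 for glycolysis and 10 for hypoxia, and all 32 were found among the 31053 genes of both libraries. The tissue came from adult C57BL/6J mice, 4 to 6 weeks old: the cochlea was cultured whole, and its sensory epithelium was cut out at the end and taken apart with trypsin. In the cocktail group the explants first spent 4 days with VPA (valproic acid, a histone deacetylase inhibitor, 1.5 mM), LiCl (lithium chloride, an inhibitor of GSK3, 8 mM), FSK (forskolin at 20 µM, which raises cAMP) and the siRNAs siFIR and siMxi1 (0.02 µM each). The vehicle group had sterile water with 0.1% DMSO for the same 4 days, and the labels name no DMSO for the cocktail. Both groups then carried ad.Atoh1, an adenovirus for the hair cell transcription factor Atoh1, for 2 weeks, so neither is an untouched cochlea. By the labels 5 cultures were pooled into 1 library per group. No label ties a cell to a culture, and a difference between the libraries therefore has no replicate check and no test. All intervals are 95% and cover counting error only.

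In glycolysis glucose enters through transporters such as Slc2a1 and is turned into pyruvate by a chain of enzymes, several of which exist as isoforms made by different genes. Pyruvate either enters mitochondria or becomes lactate, which leaves the cell through monocarboxylate transporters. When oxygen is low, the factors Hif1a and Epas1 escape destruction by the Egln prolyl hydroxylases and Vhl, and raise many of these same enzymes together with genes of vessel growth, pH control and collagen modification. In the cochlea the energy demand of the stria vascularis and of hair cells is well known, and supporting cells exchange metabolites through gap junctions.

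The cocktail library kept 1329 cells with 19531019 UMIs (molecules counted once) and the vehicle library 1584 cells with 23017362 UMIs, at median depths of 10391 and 12267 UMIs per cell. Levels are given as CPM, the UMIs of a gene scaled to a total of 1000000 UMIs over the same cells. A UMI stands for 1 molecule read at its 3′ end, so levels of different genes need no correction for length. Cells were sorted into groups by the summed level of marker genes. Such a gate is a range of a score and not a proven cell type, and 187 of 2913 cells lay just above the threshold. The tissue labelled sensory epithelium held 11 cocktail and 42 vehicle cells gated on hair cell markers and 26 and 38 on supporting cell markers. Of the hair cells 7 and 32 also passed a second gate, so the hair cell values rest mostly on cells that scored for other types too. Larger numbers passed the gates for cells rich in Gal and Cck (244 and 157), interdental or inner sulcus cells (156 and 136), other epithelial cells (228 and 333), fibroblasts (90 and 95) and mesenchymal cells rich in Otor and Emcn (63 and 52). Schwann or satellite glia (35 and 145), osteoblasts (12 and 61), neurons (8 and 22) and cells rich in Opcml and Mfap4 (43 and 105) made up more of the vehicle library. A further 404 and 363 cells passed no gate.

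Across the whole libraries the glycolytic genes stood slightly lower after the cocktail. Of the 22 glycolysis members 21 had a log2 ratio of cocktail over vehicle below 0, with a median of -0.27 against -0.03 for all 17260 genes with at least 20 UMIs. Of those 17260 genes 9634 were below 0. The counting interval lay below 0 for 17 members, above 0 for none and held 0 for 5, Pfkm, Aldoc, Eno1, Slc16a1 and Pfkfb3. The share of all genes with such an interval was not computed, here or in the gates below, so counts of intervals have no background. Intervals are narrower for abundant genes. Few differences were large: 2 members, Eno2 and Slc16a3, were lower by at least 0.5 and none was higher, where 12.9% of all genes were lower and 9.31% higher by that much. Summed, the 22 members made up 5637 CPM of the cocktail and 6797 CPM of the vehicle library, or -0.27 (-0.28 to -0.26) as a log2 ratio. Gapdh and Aldoa gave the largest parts of that sum, and without them the ratio was -0.27 (-0.28 to -0.25).

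**Figure D1:**
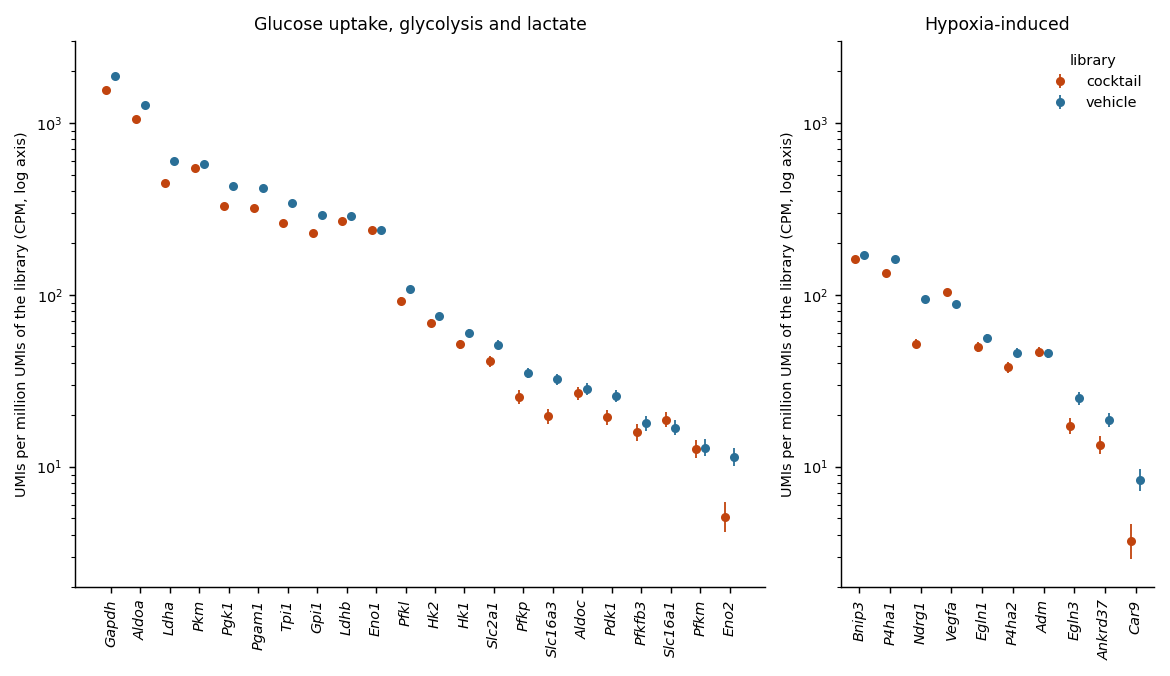
Level of each member in the cocktail and vehicle libraries in CPM on a log axis, glycolysis members on the left and hypoxia members on the right, each ordered by its vehicle level. Points are library sums and bars are Poisson counting intervals. The vehicle point is the higher of the pair for all members except Slc16a1, Vegfa and Adm, and levels run from 3.69 CPM for Car9 to 1881 CPM for Gapdh.

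Glucose uptake and its first phosphorylation differed little. Slc2a1, the main glucose transporter of barrier tissues, stood at 41.0 CPM after the cocktail and 51.2 CPM after vehicle, or -0.32 (-0.45 to -0.19) as a log2 ratio. The hexokinases trap glucose in the cell: Hk1 gave 51.4 and 60.1 CPM and Hk2 68.8 and 74.9 CPM, in the same order of libraries. Both were lower in the cocktail library, by less than 0.5 on the log2 scale. Gpi1, which isomerises glucose 6-phosphate, gave 229 and 291 CPM, or -0.34 (-0.40 to -0.29) as a log2 ratio.

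Phosphofructokinase, the committing step, came mostly from the liver-type gene Pfkl at 92.0 and 107 CPM. The platelet-type gene Pfkp stood at 25.4 and 34.97 CPM and had the lowest ratio of the enzymes upstream of enolase, -0.46 (-0.62 to -0.30). The muscle-type gene Pfkm was low and alike in both libraries, at 12.7 and 12.9 CPM. Pfkfb3, which makes the sugar phosphate that activates phosphofructokinase, gave 15.8 and 17.9 CPM, with an interval of the ratio that held 0.

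The middle of the pathway held the most abundant members. Aldoa, the main aldolase, stood at 1058 CPM after the cocktail and 1267 CPM after vehicle and Aldoc at 26.8 and 28.2 CPM. Tpi1, Pgk1 and Pgam1, which carry triose phosphates towards pyruvate, stood at 261 and 342 CPM, 329 and 429 CPM and 321 and 417 CPM. Their log2 ratios were close to each other: -0.39 (-0.44 to -0.34), -0.38 (-0.43 to -0.34) and -0.38 (-0.43 to -0.33). Gapdh, often used as a reference gene, was itself lower at 1547 and 1881 CPM, a ratio of -0.28 (-0.30 to -0.26). The end of its transcript shares 81.0% of its 60-base stretches with the gene models Gm10358 and Gm3839, so its count is uncertain.

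The last steps were less uniform. Eno1, the ubiquitous enolase, was alike in both libraries at 236 and 237 CPM, or 0.00 (-0.06 to 0.05) as a log2 ratio; 70.1% of the 60-base stretches at its 3′ end are shared with Eno1b, so this level is uncertain too. Eno2 (ENSMUSG00000004267, GRCm38 chromosome 6, 124760053 to 124769673, minus strand), the enolase of neurons, stood at 5.12 CPM after the cocktail and 11.4 CPM after vehicle, or -1.15 (-1.50 to -0.81) as a log2 ratio. The difference was far larger than counting error, and 56.0% of the cocktail and 59.5% of the vehicle Eno2 UMIs lay in the 8 and 22 cells gated on neuron markers. In a library sum, fewer cells of a type and less RNA per cell cannot be told apart. The 6 neuron markers summed to 319 and 517 CPM of the 2 libraries, and without the hair cell, glia, osteoblast and neuron gates the Eno2 ratio was -1.28. Pkm, the pyruvate kinase of most tissues, gave 544 and 573 CPM, a ratio of -0.08 (-0.11 to -0.04).

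The lactate genes were not lower alike. Ldha (ENSMUSG00000063229, GRCm38 chromosome 7, 46841475 to 46855627, plus strand), the lactate dehydrogenase subunit that favours lactate, stood at 446 CPM after the cocktail and 599.9 CPM after vehicle, or -0.43 (-0.47 to -0.39) as a log2 ratio. Ldhb (ENSMUSG00000030246, GRCm38 chromosome 6, 142490249 to 142507957, minus strand), the subunit that favours pyruvate, gave 268 and 286 CPM and a ratio of -0.09 (-0.14 to -0.04). Slc16a3 (ENSMUSG00000025161, GRCm38 chromosome 11, 120948480 to 120960868, plus strand), the lactate exporter of glycolytic cells, stood at 19.7 CPM (17.7 to 21.7) and 32.3 CPM (30.0 to 34.7), a ratio of -0.72 (-0.90 to -0.54). The related carrier Slc16a1 was the only glycolysis member on the other side of 0, at 18.8 and 16.8 CPM with an interval that held 0. Pdk1, the kinase that closes the way from pyruvate into mitochondria, gave 19.4 and 25.8 CPM. The cells gated on osteoblast markers held 5.73% of the cocktail and 30.3% of the vehicle Slc16a3 UMIs. Without the hair cell, glia, osteoblast and neuron gates the Slc16a3 ratio was -0.45, and 1 of the 22 glycolysis members, Eno2, was then lower by at least 0.5. The share of all genes in that setting is not given here.

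The DNA before the starts of these genes was read because hypoxia-inducible factors bind the core ACGTG, and Ldha and Ldhb encode subunits of one enzyme. RefSeq (GRCm38.p6) gave the 250 bases upstream of the start for 31 of the 32 members. The 5 letters ACGTG, on either strand, were present in at least 1 listed window, for 11 of 22 glycolysis members (50%) and 8 of 9 hypoxia members (88.9%), against 18.5% of 27025 genes. A gene could have several windows (4 for Pfkm, 3 for Aldoa), and each further window is another chance of a match. Of all 32851 windows 16.6% held ACGTG. The letters CACGTG, which contain ACGTG on both strands, were present for 4 glycolysis members (18.2%) and 1 hypoxia member (11.1%), against 6.86% of genes. A match is a description of these letters and not a bound site. Capitals mark ACGTG on either strand in the windows below, which are written 5′ to 3′ along the gene's own strand.
Ldha promoter, chr7:46845554-46845803, plus strand: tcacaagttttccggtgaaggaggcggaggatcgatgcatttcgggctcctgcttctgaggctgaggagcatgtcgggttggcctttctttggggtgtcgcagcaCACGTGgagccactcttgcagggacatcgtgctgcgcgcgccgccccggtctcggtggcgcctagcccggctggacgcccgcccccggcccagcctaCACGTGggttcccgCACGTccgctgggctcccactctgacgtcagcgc
Ldhb promoter, chr6:142507958-142508207, minus strand: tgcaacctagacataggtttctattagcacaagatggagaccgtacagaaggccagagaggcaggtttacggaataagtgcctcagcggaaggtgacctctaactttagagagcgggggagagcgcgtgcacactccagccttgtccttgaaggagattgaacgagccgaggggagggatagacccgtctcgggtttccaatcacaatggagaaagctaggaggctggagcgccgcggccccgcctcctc
Slc16a3 promoter, chr11:120948817-120949066, plus strand: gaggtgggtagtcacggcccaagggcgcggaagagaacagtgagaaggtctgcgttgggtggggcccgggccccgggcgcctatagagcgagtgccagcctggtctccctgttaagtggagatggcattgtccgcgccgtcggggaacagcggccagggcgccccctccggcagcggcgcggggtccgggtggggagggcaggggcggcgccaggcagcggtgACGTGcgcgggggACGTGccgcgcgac
P4ha1 promoter, chr10:59323046-59323295, plus strand: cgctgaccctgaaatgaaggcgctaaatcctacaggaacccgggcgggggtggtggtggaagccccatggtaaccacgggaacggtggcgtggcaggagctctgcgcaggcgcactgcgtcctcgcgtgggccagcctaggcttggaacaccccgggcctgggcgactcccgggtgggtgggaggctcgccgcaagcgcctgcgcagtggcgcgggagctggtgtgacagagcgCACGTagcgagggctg
The Ldha window held 5 matches on both strands counted together, from 2 CACGTG and 1 further CACGT, but its start was not found among the GENCODE transcript starts. The window of the second Ldha start, chr7:46846832-46847081, whose start was found there, held none. No match was found in the Ldhb window. Vegfa counted through 1 window, whose start was likewise not found among the GENCODE transcript starts, and its other window held none. Slc16a3, with 2 matches, and P4ha1, a hypoxia member with 1, are shown as examples that were also highest in mesenchymal cell groups, as described further on. Other members highest in such groups in both libraries held a match (such as Pgk1 and Pgam1) or none (such as Tpi1, Gapdh and Pfkl). Whether matches go with a cell group was not tested.

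The hypoxia members were lower by about as much as the glycolytic ones, but less evenly. Of 10 members 8 had a ratio below 0, where 9634 of 17260 genes did, with a median of -0.28. The interval lay below 0 for 8 members and above 0 for 1, a count without a background. Lower by at least 0.5 were 3 members, Car9, Ndrg1 and Egln3, and none was higher. Over all genes 12.9% were lower and 9.31% higher by that much. Summed, the 10 members stood at 619 and 713 CPM, or -0.20 (-0.24 to -0.17) as a log2 ratio.

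Car9 (ENSMUSG00000028463, GRCm38 chromosome 4, 43506966 to 43513729, plus strand), a carbonic anhydrase of the cell surface that serves pH control, was the rarest member, at 3.69 CPM (2.88 to 4.64, 72 UMIs) after the cocktail and 8.38 CPM (7.24 to 9.66, 193 UMIs) after vehicle. Its log2 ratio was -1.19 (-1.60 to -0.79). Ndrg1 (ENSMUSG00000005125, GRCm38 chromosome 15, 66929318 to 66969640, minus strand), which is induced by stress and needed for myelin upkeep in peripheral nerve, stood at 52.0 CPM after the cocktail and 94.5 CPM after vehicle, a ratio of -0.86 (-0.97 to -0.75). Cells gated on glia markers held 21.3% of the cocktail and 39.9% of the vehicle Ndrg1 UMIs, and the 9 glia markers summed to 297 and 497 CPM. Egln3, an oxygen-sensing hydroxylase that is itself induced, gave 17.3 and 24.9 CPM and a ratio of -0.53 (-0.73 to -0.33). Without the hair cell, glia, osteoblast and neuron gates the ratios were -1.15 for Car9, -0.37 for Ndrg1 and -0.35 for Egln3, so only Car9 stayed past 0.5, and the median of the 10 members was -0.15.

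Egln1, the main oxygen-sensing hydroxylase, gave 49.7 and 56.2 CPM with a log2 ratio of -0.18 (-0.30 to -0.06). The collagen hydroxylases P4ha1 and P4ha2 stood at 134 and 162 CPM and 37.8 and 45.9 CPM, with ratios of -0.27 (-0.35 to -0.20) and -0.28 (-0.42 to -0.14). Ankrd37, a direct target of the hypoxia factors with a little known product, gave 13.4 and 18.7 CPM and -0.49 (-0.71 to -0.26). All of these were lower in the cocktail library by less than 0.5. Adm, the vessel-active peptide adrenomedullin, was alike at 46.3 and 45.6 CPM. Vegfa, the main vessel growth factor, was the member with its interval above 0, at 104 CPM (99.1 to 108) and 87.9 CPM (84.1 to 91.8), a ratio of 0.24 (0.15 to 0.33).

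Bnip3, which marks mitochondria for removal, stood at 161 and 169 CPM, or -0.07 (-0.14 to 0.00) as a log2 ratio. A single cocktail cell held 806 of the 3150 cocktail Bnip3 UMIs, whereas the highest vehicle cell held 52 of 3896. With those 2 cells left out the Bnip3 ratio was -0.48.

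Genes of neighbouring pathways were centred close to 0, and their difference from the glycolysis members was not tested. Of 17 TCA cycle genes 10 were below and 7 above 0, none by 0.5 or more, with a median of -0.02; Cs, citrate synthase, stood at 0.23 (0.10 to 0.36) and Idh3b, part of isocitrate dehydrogenase, at -0.12 (-0.20 to -0.03). The 13 genes of pyruvate entry to mitochondria had a median of 0.06, with Pdk4 higher at 47.8 and 27.5 CPM, or 0.80 (0.65 to 0.95) as a log2 ratio. Pdk4 is a pyruvate dehydrogenase kinase known for fasting and cAMP responses. Pdhx and Dlat, parts of the pyruvate dehydrogenase complex, and its phosphatase Pdp1 stood at 0.34 (0.14 to 0.55), -0.15 (-0.29 to -0.01) and -0.22 (-0.60 to 0.16). The 7 pentose phosphate genes had a median of -0.08 and none past 0.5. Among other genes of glucose uptake and glycolysis 22 of 27 had at least 20 UMIs, and 5 were higher and 1 lower by at least 0.5, where 9.31% and 12.9% of all genes were. Fbp1 and Fbp2, which encode the fructose bisphosphatases that oppose phosphofructokinase, stood at 0.59 (0.06 to 1.13) and 0.92 (0.53 to 1.31). Pfkfb4 and Hk3 stood at -0.34 (-0.61 to -0.07) and -0.33 (-1.16 to 0.48). The others past 0.5, named after their values were seen, were Tigar, Pgam2 and Ldhc on the higher and Pfkfb1 on the lower side, each at most 6.14 CPM, the level of Tigar after the cocktail.

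A longer list of other hypoxia-induced genes was centred near 0. Of its 32 genes 4 were lower and 1 higher by at least 0.5, near the shares over all genes (12.9% and 9.31%), with a median of -0.01. The farthest were Edn1 at -1.39 (-1.87 to -0.94) and Apln at -1.36 (-1.82 to -0.93), both vessel-active peptides, on the lower side. The library held 1 cocktail and 29 vehicle cells gated on endothelial markers, and the 7 markers summed to 30.6 and 82.1 CPM, with 1 at 0 after the cocktail; their part in these values was not tested. On the higher side were Nrn1 at 0.59 (0.27 to 0.91) and Ier3 at 0.43 (0.37 to 0.48). The other lower genes were Mxi1 and, named after its value was seen, Car12 at 10.8 and 21.7 CPM, a surface carbonic anhydrase like Car9. Of the 8 oxygen-sensing genes 1 was lower and 1 higher by at least 0.5. Arnt2, a partner of the hypoxia factors known from neurons, was the lower one at -0.65 (-0.97 to -0.34), and the higher was Hif3a, with 25 UMIs in all. Hif1a itself stood at 173 and 162 CPM, a ratio of 0.09 (0.03 to 0.16), Epas1 at 18.8 and 21.6 CPM and Vhl at 15.5 and 14.6 CPM. Bsg, which carries lactate transporters to the membrane, was alike at 1654 and 1669 CPM. Mxi1, a Myc antagonist and the target of one of the siRNAs, stood at 53.5 and 106 CPM, of which 1 vehicle cell held 911 of 2429 UMIs; without the highest cells its ratio was -0.34. Of the 11 genes of growth control 1 was lower by at least 0.5: Mycn stood at -0.90 (-1.56 to -0.26), Myc at 0.29 (0.04 to 0.54) and Txnip, a brake on glucose uptake, at -0.24 (-0.31 to -0.16).

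Levels also differed between groups of cells. Among the 10 gates with at least 10 cells in each library, summed glycolysis levels were highest in fibroblasts, at 10003 and 8452 CPM, and in osteoblasts, at 8555 and 10366 CPM. They were lowest in supporting cells, at 3580.0 and 5084 CPM. Summed hypoxia levels were highest in the same gates and in glia, at 1144 and 1132 CPM, of which Ndrg1 alone gave 855 and 692 CPM. Fibroblasts gave 1428 and 1139.7 CPM and osteoblasts 931 and 1321 CPM. Interdental or inner sulcus cells gave 321 and 446 CPM. Mesenchymal cells held the peak of most glycolysis members. Among those 10 gates 16 of 22 after the cocktail and 14 after vehicle were highest in a mesenchymal gate (fibroblast, osteoblast, Otor and Emcn, or Opcml and Mfap4). The same gate was highest in both libraries for 4 glycolysis members. Of the 10 hypoxia members 6 after the cocktail and 4 after vehicle were highest in a mesenchymal gate. The share of all genes with such a peak was not computed, so these counts have no background.

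**Figure D2:**
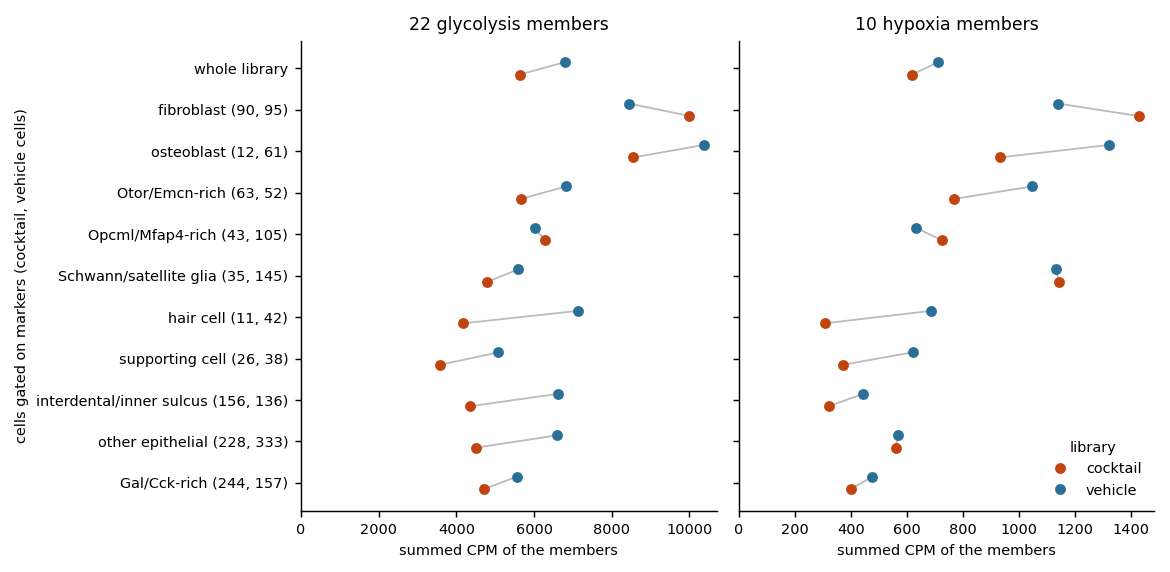
Summed CPM of the 22 glycolysis and the 10 hypoxia members in the whole libraries and in each gate with at least 10 cells per library, with the cell numbers of the cocktail and vehicle library in brackets. Each point is 1 library. For glycolysis the cocktail point lies right of the vehicle point in fibroblasts and in cells rich in Opcml and Mfap4, and left of it in the other 8 gates.

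The balance of Ldha and Ldhb differed between these groups. Ldha was highest in osteoblasts at 1186 and 1789.6 CPM, fibroblasts at 1394 and 1232 CPM and cells rich in Otor and Emcn at 875 and 1124 CPM. Those rich in Gal and Cck held 77.4 and 176 CPM. Ldhb was highest elsewhere, with 657 and 536 CPM in glia, 449.8 and 565 CPM in hair cells and 359.7 and 586 CPM in interdental or inner sulcus cells, and 84.0 and 117 CPM in osteoblasts. As a share of the UMIs of the pair, Ldha made up 93.4% (90.9 to 95.3) and 93.9% (93.0 to 94.7) in osteoblasts but 33.1% (27.2 to 39.3) and 41.0% (38.1 to 43.9) in glia. In neurons of the vehicle library it made up 13.8% (10.8 to 17.3). Within a group the libraries differed most in cells rich in Gal and Cck, with 19.2% (17.1 to 21.5) after the cocktail and 39.3% (36.4 to 42.3) after vehicle, and in hair cells, with 11.1% (5.68 to 19.0) and 35.1% (31.3 to 39.1). Interdental or inner sulcus cells had 42.5% and 44.0%, with overlapping intervals.

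Other isoforms were divided in their own ways. Hk2 exceeded Hk1 in fibroblasts, with 73.9% and 73.8% of the pair, and was the smaller part in cells rich in Gal and Cck, with 44.9% and 37.3%. In interdental or inner sulcus cells the Hk2 share was 43.4% (37.5 to 49.3) after the cocktail and 58.9% (54.0 to 63.6) after vehicle. Aldoc, the aldolase known from brain, stood at 99.5 and 104 CPM in interdental or inner sulcus cells and at 51.5 and 70.4 CPM in other epithelial cells, but at 4.43 and 2.08 CPM in fibroblasts. It gave 11.4% and 8.56% of aldolase UMIs in the first of these and under 1% in fibroblasts. Eno2 made up 55.1% (49.1 to 61.0) of enolase UMIs in vehicle neurons and 2.48% in vehicle fibroblasts. Pfkp, too, was highest in neurons, at 195 and 166 CPM, against 6.00 and 8.75 CPM in cells rich in Gal and Cck. The neuron values rest on 8 cocktail cells.

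**Figure D3:**
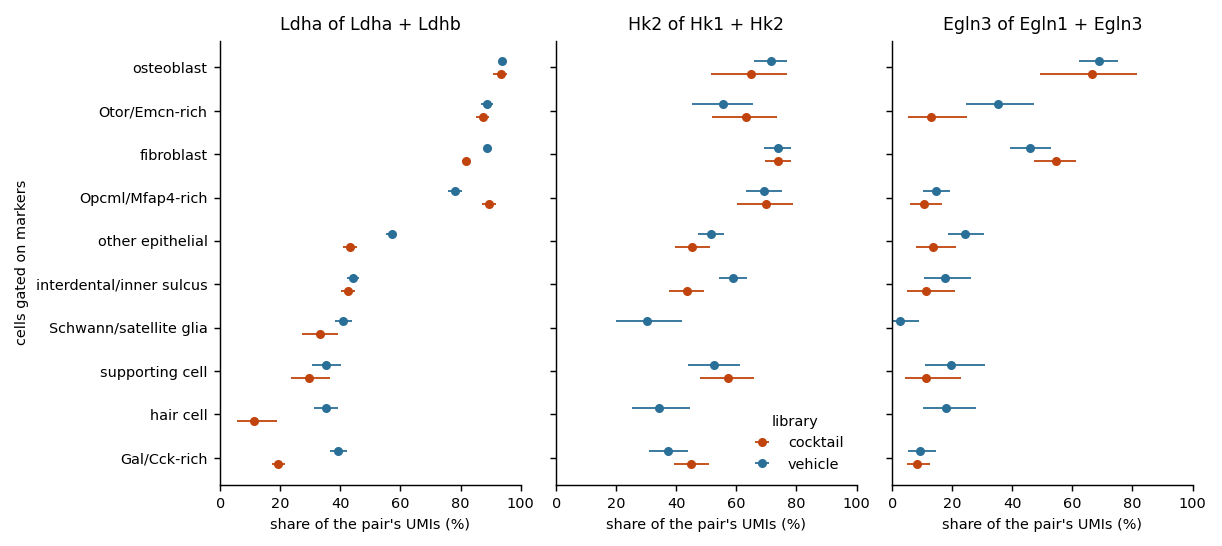
Share of Ldha, Hk2 and Egln3 in the UMIs of their pair, in percent, in each library and each of the 10 gates with at least 10 cells in both libraries, with exact binomial (Clopper-Pearson) intervals; a missing point had too few UMIs of the pair. Among these gates Ldha ranges from 11.1% in cocktail hair cells to 93.9% in vehicle osteoblasts, and Egln3 from 2.53% in vehicle glia to 69.0% in vehicle osteoblasts.

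Of the lactate carriers, Slc16a3 was highest where Ldha was. It stood at 99.8 and 113 CPM in fibroblasts and 52.8 and 132 CPM in osteoblasts, against 1.58 and 0.834 CPM in cells rich in Gal and Cck and 0.894 and 7.85 CPM in other epithelial cells. Slc16a1 stood in glia at 43.5 and 41.5 CPM in fibroblasts at 41.0 and 29.7 CPM and in osteoblasts at 57.6 and 24.1 CPM, and was nearly missing from interdental or inner sulcus cells at 1.54 and 2.22 CPM. Slc2a1 had a different order, with 55.1 and 79.0 CPM in interdental or inner sulcus cells and 58.2 and 50.5 CPM in fibroblasts.

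Each hypoxia member had its own place. Ndrg1 was a glial gene here, at 855 and 692 CPM, and no other of the 10 gates exceeded 168 CPM, the level in vehicle osteoblasts. After thinning every cell to 5000 UMIs, 86.4% of 22 cocktail and 76.4% of 106 vehicle glia had an Ndrg1 UMI, against 6.84% and 9.26% of 117 and 108 cells rich in Gal and Cck; 13 and 39 shallower glia were left out, and the shares before thinning were 82.9% and 80.0%. P4ha1 and P4ha2 were highest in collagen-making cells. P4ha1 stood at 464 and 332 CPM in fibroblasts and 307 and 438 CPM in osteoblasts against 33.9 and 83.9 CPM in interdental or inner sulcus cells, and P4ha2 at 173 and 159 CPM in fibroblasts against 7.90 and 16.3 CPM in cells rich in Gal and Cck. Among the 10 gates Egln3 was likewise highest in osteoblasts at 57.6 and 87.6 CPM and fibroblasts at 62.1 and 52.6 CPM. Egln1 was highest in cocktail cells rich in Opcml and Mfap4 at 115 CPM.

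Adm was found mainly in fibroblasts, at 192 and 137 CPM, and in cells rich in Otor and Emcn, at 80.2 and 153 CPM, and the 29 vehicle cells gated on endothelial markers held 205 CPM. Car9 was found mainly in other epithelial cells, interdental or inner sulcus cells, fibroblasts and vehicle hair cells. It stood at 7.45 and 23.8 CPM in other epithelial cells, 7.32 and 18.2 CPM in interdental or inner sulcus cells, 12.2 and 8.34 CPM in fibroblasts and 39.1 CPM in vehicle hair cells, with no UMI in the 11 cocktail hair cells, which allows up to 15.3 CPM. Supporting cells, glia and cells rich in Opcml and Mfap4 held no Car9 UMI in either library. Cells rich in Gal and Cck, also epithelial, held 0 and 1 Car9 UMI, and those rich in Otor and Emcn 0 and 7. Vegfa lay between 43.2 and 141 CPM in the 10 gates other than glia, where it stood at 7.92 and 40.7 CPM. Bnip3 was high in vehicle hair cells at 304 CPM (264 to 348) and lower in cocktail hair cells at 76.7 CPM (42.9 to 126), of which there were 11. Ankrd37 reached at most 42.0 CPM among the 10 gates, in vehicle hair cells.

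**Figure D4:**
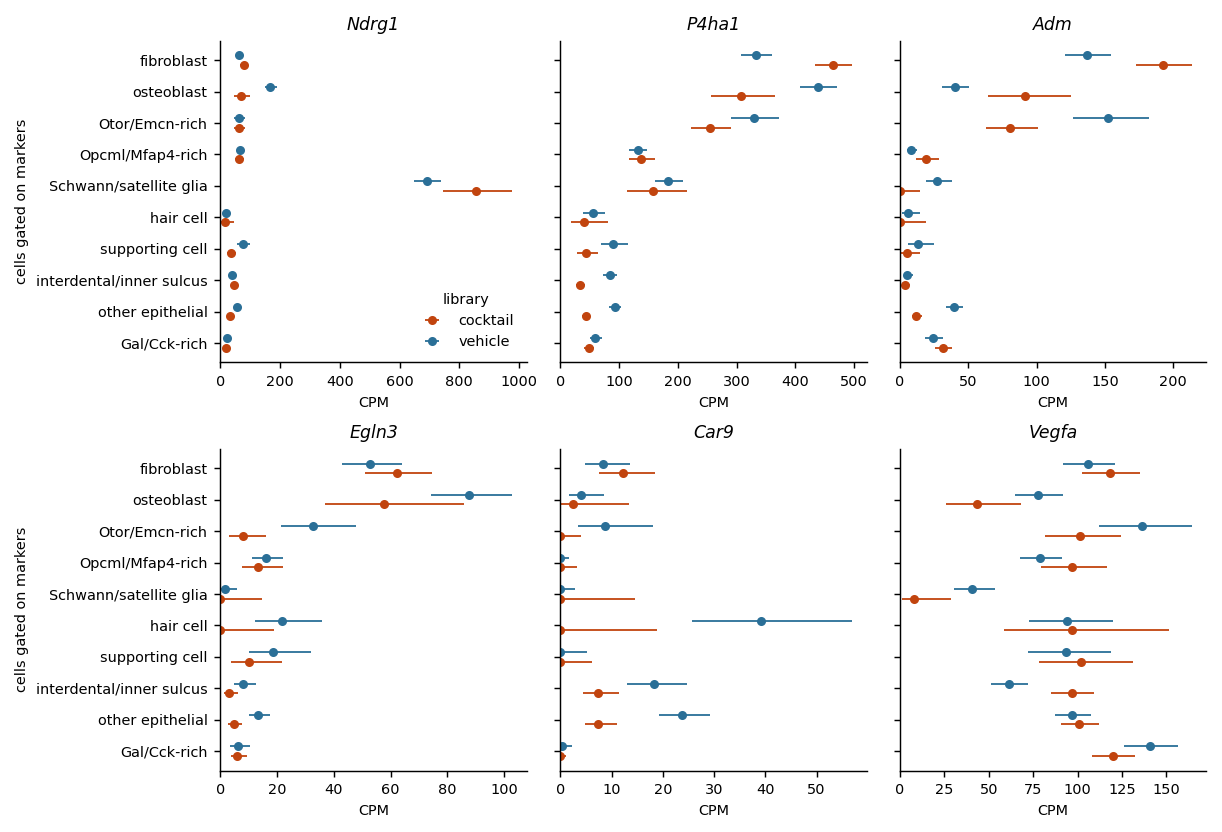
CPM of 6 hypoxia members in each library and each of the 10 gates with at least 10 cells in both libraries, with Poisson counting intervals; each panel has its own linear axis from 0. Ndrg1 stands apart in glia at 855 and 692 CPM, P4ha1, Adm and Egln3 are highest in mesenchymal gates among these 10, and Car9 is highest in vehicle hair cells at 39.1 CPM.

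Within groups of cells, the medians lay farthest below 0 in other epithelial and in interdental or inner sulcus cells. In the 228 cocktail and 333 vehicle other epithelial cells 13 of 22 glycolysis members were lower in the cocktail library by at least 0.5 and none was higher, where 13.3% of all genes were lower and 9.59% higher by that much. Their median ratio was -0.57, against -0.02 for all genes, and their sum was 4504 CPM after the cocktail and 6604 CPM after vehicle. Per cell the median was 45.0 (quartiles 30.4 and 67.5) glycolysis UMIs per 10000 UMIs after the cocktail and 57.8 (quartiles 37.8 and 85.6) after vehicle, so the quartile ranges of cells overlapped. Ldha stood at 218 and 423 CPM, or -0.95 (-1.08 to -0.83) as a log2 ratio, and Tpi1 at 193 and 369 CPM, a ratio of -0.94 (-1.07 to -0.80). Pfkp gave 9.83 and 33.7 CPM, Hk2 38.4 and 69.8 CPM and Slc2a1 45.3 and 76.9 CPM. These 3 were lower after the cocktail, with log2 ratios of -1.78 (-2.38 to -1.22), -0.86 (-1.18 to -0.55) and -0.76 (-1.06 to -0.48). Ldhb stood close to 0 at -0.15 (-0.27 to -0.03), and Pfkm, at 0.40 (-0.33 to 1.14), had an interval that held 0.

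Among the hypoxia members of these cells 7 of 10 were lower by at least 0.5 and 1 was higher, with a median of -0.91. Over all genes of this gate 13.3% were lower and 9.59% higher by that much. Adm stood at 11.9 and 39.5 CPM, or -1.73 (-2.27 to -1.22) as a log2 ratio, Car9 at 7.45 and 23.8 CPM, a ratio of -1.68 (-2.38 to -1.02), and P4ha1 at 43.5 and 93.1 CPM, a ratio of -1.10 (-1.39 to -0.82). Egln3, Ankrd37, Ndrg1 and P4ha2 were lower as well, at -1.49 (-2.39 to -0.65), -1.02 (-1.67 to -0.41), -0.81 (-1.16 to -0.46) and -0.54 (-1.14 to 0.05). Vegfa was alike at 101 and 97.1 CPM. Bnip3 appeared higher at 309 and 169 CPM, but the cell with 806 Bnip3 UMIs lay in this gate, and without the highest cells its ratio was -1.21. The libraries also differed in the makeup of this gate: Vmo1, a secreted protein gene, stood at 41.4 and 549 CPM. In the 200 and 284 cells without a Vmo1 UMI the medians were -0.55 for glycolysis and -0.90 for hypoxia members. The TCA cycle genes of the other epithelial cells had a median of 0.06, and the other hypoxia-induced genes one of -0.35.

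Interdental or inner sulcus cells, which make and shape the tectorial membrane, showed a similar picture as a whole. Of 20 glycolysis members with at least 20 UMIs 15 were lower by at least 0.5 and none higher, where 18.4% of all genes were lower and 9.11% higher. Of the 10 hypoxia members 6 were lower and 1, Vegfa, higher. The medians were -0.68 and -0.78, against -0.08 for all genes. Hk2 stood at 47.8 and 110.1 CPM, or -1.20 (-1.53 to -0.89) as a log2 ratio, Gapdh at 1258 and 2040.5 CPM, a ratio of -0.70 (-0.76 to -0.63), and P4ha1 at 33.9 and 83.9 CPM, a ratio of -1.31 (-1.69 to -0.93). Slc16a3 had the lowest ratio, -3.26 (-5.63 to -1.55), from 1.16 and 11.1 CPM, which were only 3 and 25 UMIs. On the other side, Vegfa stood at 96.8 and 61.3 CPM, a ratio of 0.66 (0.35 to 0.97), and Aldoc was alike at 99.5 and 104 CPM. Eno2 and Slc16a1 had fewer than 20 UMIs here.

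This gate held different cells in the 2 libraries. Ceacam16, a tectorial membrane protein of interdental cells, stood at 758 and 379 CPM, Tecta, the main tectorial membrane protein, at 155 and 393 CPM and Vmo1 at 43.6 and 441 CPM. A split by these markers was added after the data were seen. In the 120 cocktail and 53 vehicle cells with Ceacam16 and without Tecta, 4 of 19 glycolysis members (Slc2a1, Hk2, Ldhb and Pdk1) were lower by at least 0.5, where 13.5% of all genes were, and the medians were -0.22 for glycolysis and -0.02 for hypoxia members. In the 22 and 64 cells with Tecta, 12 of 19 were lower and 1, Pfkm, higher, where 17.5% of all genes were lower, and the medians were -0.67 and -1.07. The medians of the whole gate were thus not seen in its cells with Ceacam16 and without Tecta, although single members such as P4ha1 and Vegfa kept values close to those of the whole gate. In the 149 and 114 cells that passed no second gate the medians were -0.51 and -0.29. Cells with Tecta and those with Ceacam16 but without Tecta both had lower Hk2 (-0.84 and -0.67), Gapdh (-0.65 and -0.47), Pdk1 (-1.55 and -0.62) and P4ha1 (-1.07 and -1.11). Vegfa lay on opposite sides of 0, at -1.05 and 0.77.

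Cells rich in Gal and Cck, an epithelial group with Epcam at 363 and 334 CPM, showed a narrower difference. Of 20 glycolysis members 8 were lower and 1 higher by at least 0.5, where 11.6% of all genes were lower and 10.2% higher, with a median of -0.27. Ldha stood at 77.4 and 176 CPM, or -1.19 (-1.42 to -0.96) as a log2 ratio, while Ldhb stood higher in the cocktail library at 325 and 272 CPM, a ratio of 0.26 (0.11 to 0.40). Tpi1, Pgam1, Gpi1 and Pgk1 were lower at -0.66 (-0.88 to -0.45), -0.57 (-0.74 to -0.40), -0.52 (-0.67 to -0.37) and -0.50 (-0.68 to -0.33). Slc16a1 was higher at 1.28 (0.22 to 2.47), though from levels of only 10.1 and 4.17 CPM. Hk2 and Pfkl held 0, at 0.19 (-0.22 to 0.60) and 0.05 (-0.20 to 0.31). Of 9 hypoxia members 7 were below 0, where 6009 of 11847 genes of this gate were, with a median of -0.30. Lower by at least 0.5 were 2 of these members, P4ha2 and Ankrd37. The interval lay below 0 for 4 and above 0 for none, with Bnip3 at -0.48 (-0.71 to -0.25) and Vegfa at -0.23 (-0.45 to -0.02). The cocktail cells of this gate were shallower, at a median of 4358 against 14471 UMIs, and with at least 5000 UMIs per cell the glycolysis median was -0.24. With every cell given the same weight it was -0.55 and the hypoxia median -0.60, against -0.08 for all genes. Then 5 of the 9 hypoxia members were lower by at least 0.5, where 26% of all genes were.

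Mesenchymal cells rich in Otor and Emcn were lower in the cocktail library for 17 of 20 glycolysis members. Over all genes of this gate 4346 of 8655 were below 0. Of the members 5 were lower by at least 0.5, where 17.5% of all genes were. Another 2 were higher by that much, where 17.2% of all genes were. These shares past 0.5 are not far from the background. Hk1, Pfkp, Pgk1, Slc16a3 and Pdk1 were the lower and Pfkm and Slc16a1 the higher ones. Pgk1 stood at 414 and 593 CPM, or -0.52 (-0.72 to -0.32) as a log2 ratio, Ldha at -0.36 (-0.50 to -0.22) and Slc16a3 at 27.8 and 65.0 CPM, a ratio of -1.22 (-1.97 to -0.51). Of 9 hypoxia members 4, Adm, Egln3, Ankrd37 and P4ha2, were lower by at least 0.5. Egln3 gave 7.80 and 32.5 CPM, a ratio of -2.06 (-3.51 to -0.82), and Adm 80.2 and 153 CPM, a ratio of -0.93 (-1.37 to -0.50). Col1a2, a fibroblast collagen, also differed in this gate, at 466 and 1405 CPM, as did Postn at 15.6 and 129 CPM; their part in the result was not tested. Of this gate 21 of 63 cocktail and 42 of 52 vehicle cells also passed a second gate. In the other 42 and 10 cells the medians were -0.39 for glycolysis and -0.65 for hypoxia members, against -0.25 and -0.43 in the whole gate.

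In fibroblasts most members were slightly higher after the cocktail, and the difference from the other gates was not tested. Of 21 glycolysis members 17 were above 0, and of 10 hypoxia members 9. Over all genes of this gate 4638 of 10628 were above 0. Most steps were small: 2 glycolysis members were higher and 3 lower by at least 0.5, where 10.2% and 15.5% of all genes were, and 2 hypoxia members were higher. With every cell given the same weight 10 of 21 glycolysis members were higher by at least 0.5, where 16% of all genes were, and 6 of 10 hypoxia members were above 0. With the stricter gate (21 and 39 cells) 5 of 9 hypoxia members were higher by at least 0.5, where 13.1% of all genes were. The medians of the gate as set were 0.21 and 0.31, against -0.06 for all genes. Ldhb stood at 311 and 153 CPM, or 1.02 (0.81 to 1.23) as a log2 ratio, and Eno1 at 629 and 430.4 CPM, a ratio of 0.55 (0.42 to 0.68). P4ha1 stood at 464 and 332 CPM, a ratio of 0.48 (0.33 to 0.63), Adm at 192 and 137 CPM, a ratio of 0.49 (0.26 to 0.73) that became 0.26 without the highest cells, and Ankrd37 at 39.9 and 24.5 CPM, a ratio of 0.70 (0.15 to 1.27). Car9 was the second hypoxia member past 0.5, at 0.55 (-0.45 to 1.57), with an interval that held 0. On the lower side were Eno2 at -2.72 (-5.11 to -0.97), Pfkm at -0.52 (-1.44 to 0.36), whose interval held 0, and Pfkfb3 at -0.50, from 32.7 and 46.4 CPM. The Eno2 ratio rests on only 3 and 21 UMIs. Per cell the median was 99.5 (quartiles 77.3 and 139) glycolysis UMIs per 10000 after the cocktail and 72.7 after vehicle. Among other hypoxia-induced genes of fibroblasts 5 were higher and 2 lower of 30, with a median of 0.12. They were Nrn1, Stc2, Tfrc, Ero1l and Hmox1, and Stc1 and Mxi1, named after their values were seen. Fibroblast markers of the 2 libraries differed too, with Dcn at 1330.0 and 719.7 CPM and Postn at 49.9 and 142 CPM, and so did the osteoblast marker Ibsp at 278 and 433 CPM and Otor at 51.5 and 153 CPM; their part in the result was not tested.

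**Figure D5:**
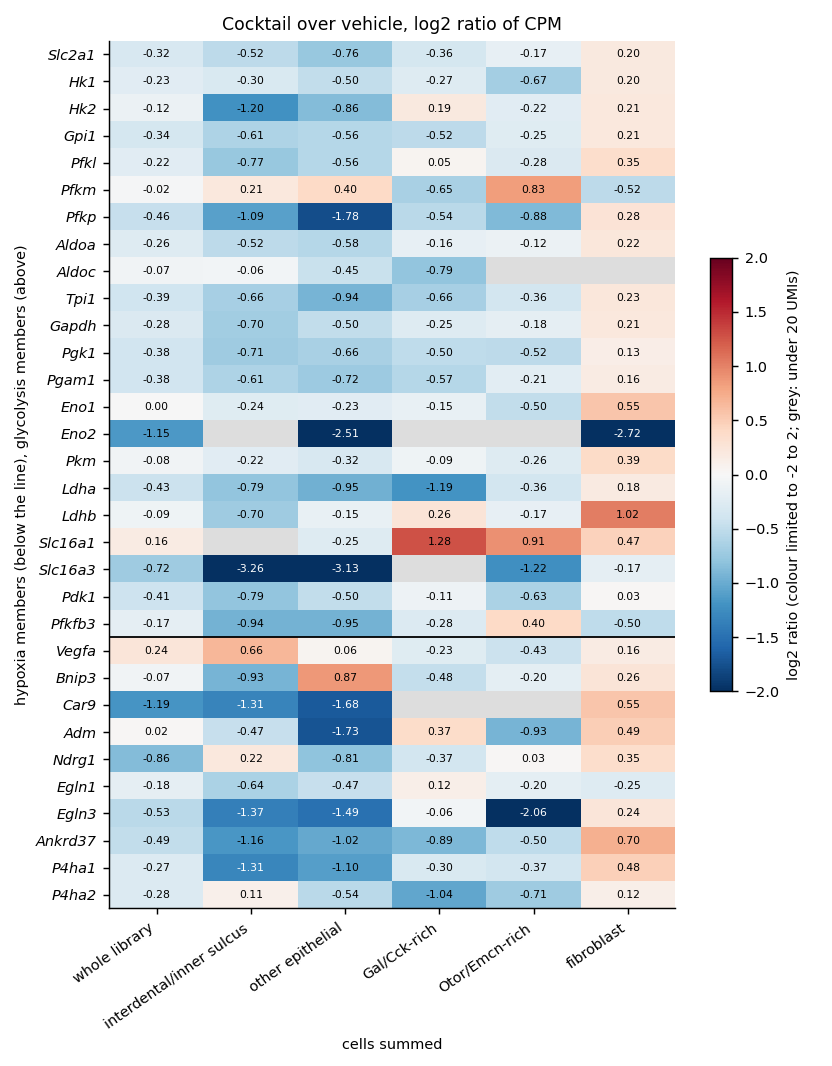
Log2 ratio of cocktail over vehicle CPM for each member (rows) in the whole library and in 5 gates with at least 50 cells in each library (columns), blue where the cocktail library was lower and red where it was higher. Grey fields had fewer than 20 UMIs. The columns of interdental or inner sulcus and other epithelial cells are mostly blue and the fibroblast column mostly pale red; the value of 0.87 for Bnip3 in other epithelial cells rests on 1 cell.

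Cells of like depth were also compared across the whole libraries. Between 500 and 100000 UMIs per cell, in 7 ranges of depth, the summed glycolysis level was lower in the cocktail library in each range, with log2 ratios from -0.48 (10000 to 20000 UMIs) to -0.02 (1000 to 2000 UMIs). Hypoxia members were lower in 6 of the 7 ranges, from -0.68 to -0.19, and higher by 0.15 in cells with at least 40000 UMIs.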

How the data were processed

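Processed files of 2 10x single-cell libraries, 1 per group, were used. The deposited values are UMI counts per gene and cell barcode, made with Cell Ranger 5.0.0 per the file headers. Also named in the submitters' processing notes are mm10 and GRCm38 as builds, Seurat 3.2.2 and STAR. The annotation release and whether strand was used in counting are not given in the sources used here. Of the 31053 identifiers 30934 matched GENCODE M21, which gave positions. Genes on the opposite strand overlap Adm, Aldoa, Ankrd37, Bnip3, Car9, Gapdh, Gpi1, Hk1, Hk2, Ndrg1, Pfkfb3, Pfkm, Pfkp, Slc2a1 and Tpi1, so their reads could be mixed. A second Aldoa row with 9 UMIs was left out.

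Barcodes were kept from 500 UMIs and 300 genes upward, up to a mitochondrial share of 20%, which removed 74 cocktail and 104 vehicle barcodes; 1400 and 1700 cells are stated in the labels. No barcode was shared between the libraries, no doublet caller was run, and free RNA was not subtracted. A cell entered the gate with the highest marker score, if that was at least 2 with at least 2 markers; 319 of 2913 cells passed several gates. Epithelial cells in no other gate formed the other epithelial gate. The members and gene lists were chosen with earlier results of these data known, and the gate rule after seeing the data.

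UMIs were summed over cells. A level of 0 allows up to 0.15 CPM (cocktail) and 0.13 CPM (vehicle) in the whole libraries, from 3 counts. Levels have exact Poisson intervals, log2 ratios exact conditional intervals and shares exact Clopper-Pearson intervals. Ratios were read for genes with at least 20 UMIs over both libraries and gates with at least 50 cells in each; subsets of these gates, such as cells with Tecta and those of the stricter gate, could be smaller. With 1 library per group no test was made, and a log2 ratio past 0.5 in either direction is a rule of size. All members were accounted for; from the other lists up to 2 genes on each side with at least 50 UMIs and the ratios farthest from 0 were named, beside Hif1a, Epas1, Vhl, Mxi1 and Bsg. Only the log2 ratio of library sums and its interval were tested on simulated counts, which held no spread between cells. All steps were run in python 3.11.15 with numpy 2.4.6, pandas 2.3.3, scipy 1.17.1 and matplotlib 3.10.9. Alternatives in scaling, depth, mitochondrial share, gates and cell mix are given in the closing section.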

Additional observations from a re-analysis of the deposited data

Results flagged for a closer look

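The summed glycolysis level lay on opposite sides of 0 in different groups of cells. In fibroblasts the log2 ratio of cocktail over vehicle was 0.24. It was -0.24 in cells rich in Gal and Cck, -0.61 in interdental or inner sulcus cells, -0.27 in mesenchymal cells rich in Otor and Emcn and -0.55 in other epithelial cells. The summed hypoxia level did likewise, at 0.33 in fibroblasts against -0.25 in cells rich in Gal and Cck, -0.47 in interdental or inner sulcus cells and -0.45 in cells rich in Otor and Emcn; in other epithelial cells it was -0.02 (-0.11 to 0.07), with an interval that held 0. Without Bnip3 and P4ha1, its most abundant members, the interdental or inner sulcus value was 0.03 (-0.15 to 0.22) and the other epithelial value -0.56 (-0.70 to -0.42). These differences between groups of cells were not tested, since each group of cells was seen in 1 library per condition.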

How the results depend on the processing

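No paired analysis was possible because each group is 1 library. Over 11 alternatives between 27 and 30 of the 32 members were below 0 in the whole libraries, against 29, and these were not always the same members. The settings with a size rule of 1 and without a minimum of UMIs could not change a ratio, since every member had at least 20 UMIs. Their count of 29 was thus fixed in advance. With every cell weighted alike (mean of per-cell CPM) 4 glycolysis members were lower by at least 0.5, against 2, the hypoxia median was -0.44, against -0.28, and Pkm (0.080) and P4ha2 (0.20) changed sign. Within gates this weighting also moved the share of all genes lower by at least 0.5. It went from 11.6% to 26% in cells rich in Gal and Cck and from 15.5% to 34.4% in fibroblasts. With the cell groups weighted alike 1 glycolysis member was higher and 1 hypoxia member lower by at least 0.5, the hypoxia median was -0.15, and Vegfa (-0.012) and Bnip3 (0.068) changed sign. Past a log2 ratio of 1 there was 1 lower member in each list. Without the hair cell, glia, osteoblast and neuron gates there was likewise 1 in each, with a hypoxia median of -0.15. Without each gene's highest cell that median was -0.39. Shares of all genes past the cut in the whole libraries are not given for these settings, so their counts of members have no background. In interdental or inner sulcus cells with Ceacam16 and without Tecta the medians were -0.22 (glycolysis) and -0.025 (hypoxia), against -0.68 and -0.78. The fibroblast glycolysis median was 0.43 as a mean of per-cell CPM, against 0.21. The Ldha share in cocktail fibroblasts was 77.6% with stricter gates and 85.8% as a mean of per-cell shares, against 81.8%, and in cocktail interdental or inner sulcus cells 39.6% with stricter gates, against 42.5%. The settings on mitochondrial share of at least 0.5%, on single gates, on Tecta and Vmo1, and on the hair cell, glia, osteoblast and neuron gates were chosen after seeing the data. The cause of these moves was not tested. Depth limits the rare members: Car9 rests on 265 UMIs.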
